A study of Mus musculus with 21 samples.

Results

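The genes that make, package and take up the inhibitory transmitter GABA, anchor its receptors and set the chloride gradient were followed in Cstb-/- and wild type mice. All array probe sets annotated to 1 of 9 gene symbols alone were taken: Gad1, Gad2, Slc6a11, Slc32a1, Gphn, Slc12a2, Slc12a5, Gabbr1 and Gabbr2. This gave 22 probe sets of 45037, from 8 of the 9 genes. Gabbr2 had no probe set under its symbol alone in the annotation used and was not analysed here. Mice of the 129SvJ background that lack cystatin B, an inhibitor of cysteine proteases, serve as a model of progressive myoclonus epilepsy, and their wild type littermates were the controls. The deletion is carried by all cells of the animal, and cerebella were profiled whole, so each array averaged over all cell types. Labelled cRNA made from total RNA had been hybridised to Affymetrix oligonucleotide arrays. At postnatal day 7 (P7) there were 4 Cstb-/- arrays, 3 labelled male, and 4 wild type arrays, 1 labelled male. At P30 there were 3 Cstb-/- arrays, 2 labelled male, and 3 wild type arrays, all labelled male, whereas the methods describe the P30 mice as males throughout, so the female label is in doubt. Cerebellar granule cells had been taken from mice at postnatal day 5 and cultured for 2 days with cytosine arabinoside against glial growth. The culture arrays analysed here were 3 Cstb-/- and 4 wild type. By the methods, more arrays were hybridised at P7 and in cultures than are held here. The authors left some out of their analysis, after a principal component check of whether samples of a genotype grouped together. Such a choice can narrow the spread within a genotype, on which p-values rest.

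GABA is made from glutamate by the glutamic acid decarboxylases encoded by Gad1 and Gad2, loaded into synaptic vesicles by the transporter encoded by Slc32a1, and cleared from the extracellular space in part by the glial transporter encoded by Slc6a11. In the cerebellum it is the transmitter of Purkinje cells and of the basket, stellate and Golgi interneurons, and granule cells receive it from Golgi cells. Gephyrin, the product of Gphn, holds GABA-A and glycine receptors at inhibitory synapses. The cotransporter encoded by Slc12a2 (NKCC1) brings chloride into cells and that encoded by Slc12a5 (KCC2) carries it out of neurons, and the shift towards Slc12a5 during maturation makes GABA inhibitory. Gabbr1 and Gabbr2 encode the subunits of the metabotropic GABA-B receptor.

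The values were log2 signals from which the median of each probe set within its experiment had been subtracted. A value of 0 is thus the middle of the arrays of an experiment. The level of a gene is not kept, and genes cannot be ranked by abundance or checked against background. For the same reason the labelled tissues could not be checked by whether marker genes were present. Both Cstb probe sets were lower in the knockout in each experiment, with log2 differences between -3.10 and -1.86 and no overlap between genotypes. At P7 the values over all probe sets spread most on knockout array 5 (SD 0.23) and wild type array 3 (SD 0.22), against 0.12 to 0.17 on the others. In the cultures, 51.3% of probe sets and 11 of the 22 described here held tied values on some arrays. On those 11 the ties were at exactly 0, for a reason the sources do not give. Repeated values can narrow the spread within a group, on which SEs and p-values rest. Wild type arrays 4 and 8, for example, were both at 0 on Gad2 1429589_at (wild type SD 0.03). Nothing in the labels says how many animals gave 1 culture array, so p-values there measure the spread between arrays. A probe set was called changed at a fold of 1.3 or more, which is 0.38 on the log2 scale, together with an adjusted p that lay below 0.05 for cerebellum or below 0.01 for cultures, by limma with Benjamini-Hochberg adjustment over all probe sets.

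No probe set of these genes was called in P7 cerebella, against 0.00666% of all probe sets, which is 3 of them. Differences were more often above 0, in 15 of 22 against 53.7% of all probe sets, and their median was 0.12 against 0.01. An unadjusted p under 0.05 was reached by 8 of 22, against 9.45% of all probe sets, 6 of them with higher values in the knockout (4.47% of all) and 2 with lower values (4.99% of all). Every probe set of Gad1, Gad2, Slc6a11, Slc32a1 and Slc12a5 had a positive difference, and every probe set of Gphn and Slc12a2 a negative one. The smallest adjusted p was 0.371. The 95% confidence interval of the difference lay within a fold of 1.3 either way for 9 of 22, against 77.9% of all probe sets, so a change of that size was not excluded for the other 13. Probe sets of a gene share its transcripts, so these counts are not counts of independent genes.

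**Figure D1:**
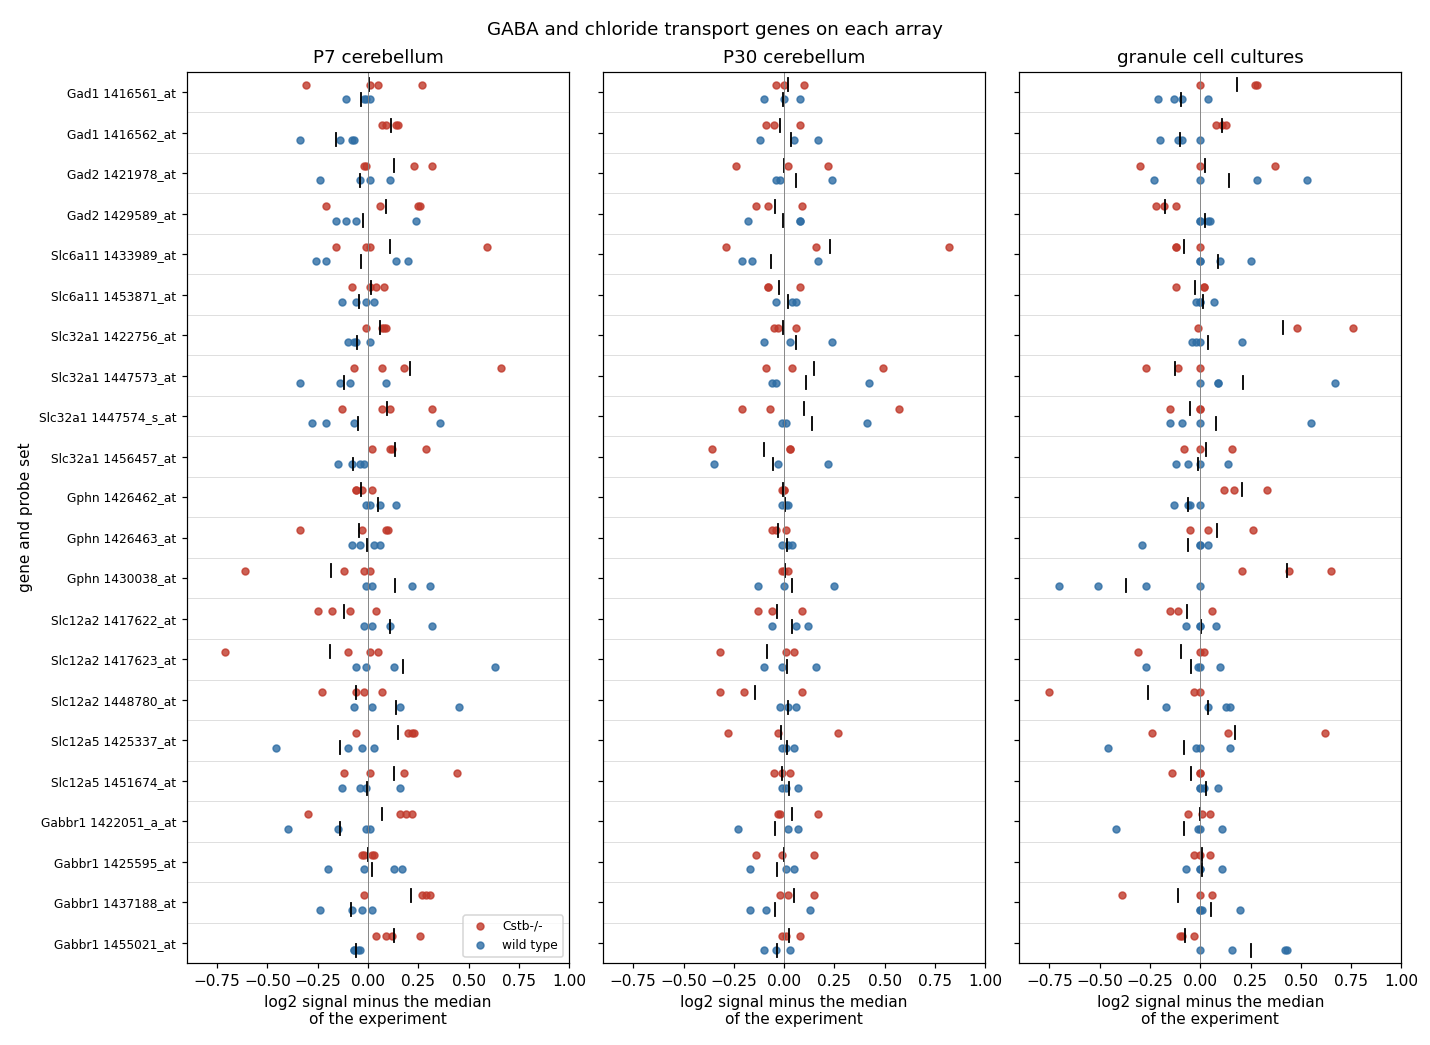
Centred log2 signal of each probe set on each array, with Cstb-/- arrays (red) above wild type arrays (blue) in each row and a black bar at the mean of each genotype, for P7 cerebellum, P30 cerebellum and granule cell cultures. Most rows overlap between genotypes. The widest gap between genotype means is that of Gphn 1430038_at in the cultures, 0.43 against -0.37.

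**Figure D2:**
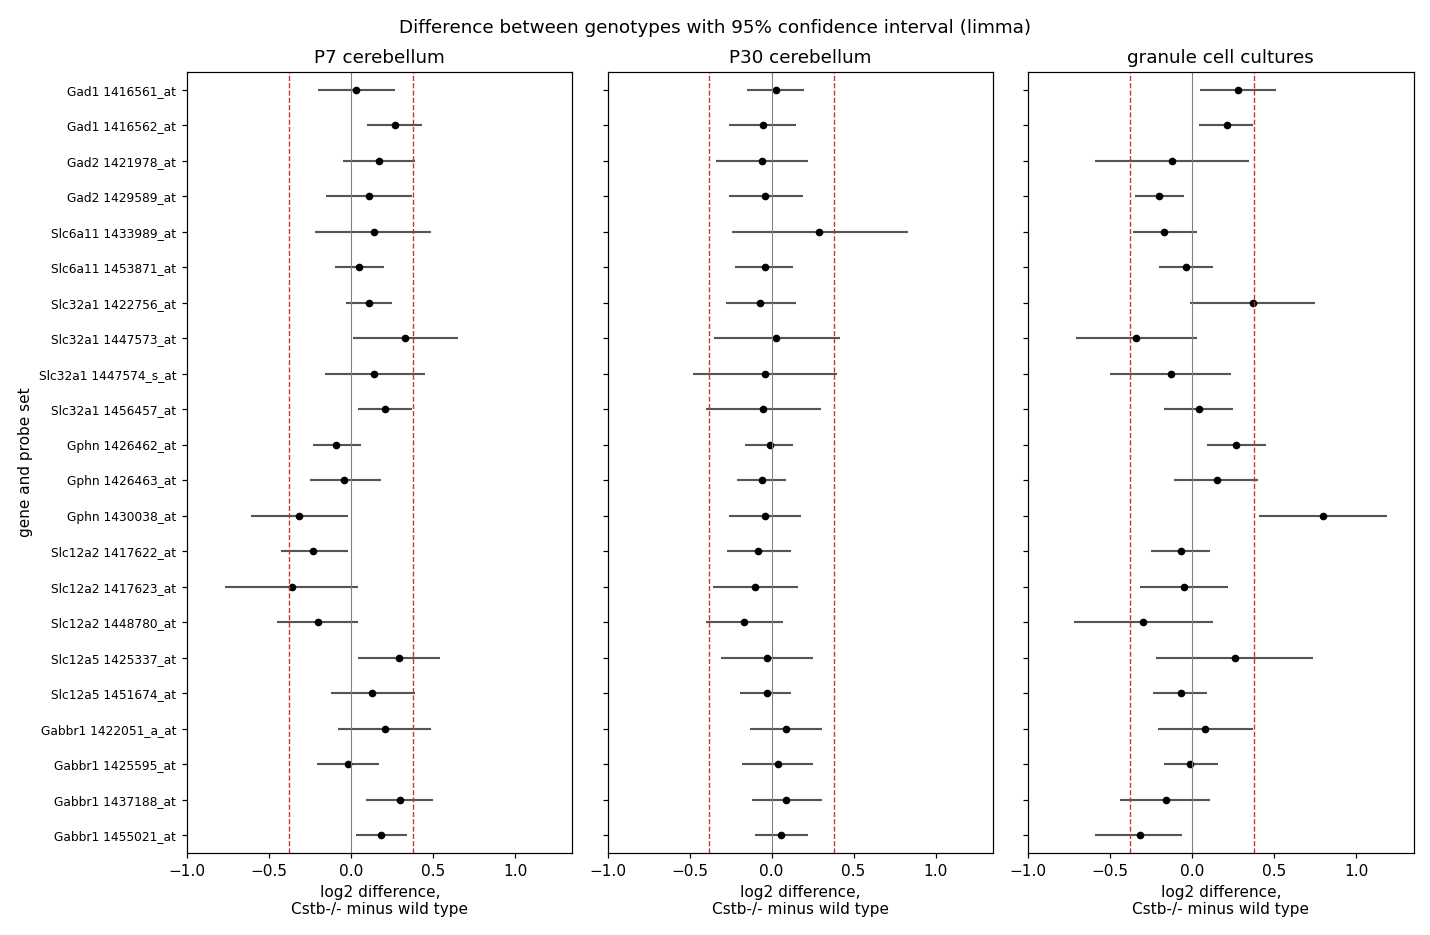
Difference in log2 signal, Cstb-/- minus wild type, with its 95% confidence interval from limma, by probe set and experiment. Dashed lines mark a fold of 1.3 (0.38 on the log2 scale) in either direction. In P30 cerebella the differences lie between -0.17 and 0.29.

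Gad1, which encodes GAD67, had 2 probe sets with unlike results at P7. On 1416562_at the knockout arrays were at 0.07, 0.14, 0.15 and 0.09, against -0.07, -0.08, -0.34 and -0.14 on the wild type arrays. All 4 knockout arrays lay above all 4 wild type arrays on this probe set. The difference was 0.27 (SE 0.08, 95% interval 0.10 to 0.43), with an adjusted p of 0.371. On 1416561_at the knockout values of 0.01, 0.27, 0.05 and -0.31 enclosed the wild type values of 0.01, -0.02, -0.11 and -0.01, and the difference was 0.03 (SE 0.11). The 2 probe sets were designed from 1 database entry, and their values had a Pearson r of 0.28 over the 8 arrays, given as a description. Gad2, which encodes GAD65, differed by 0.17 (SE 0.10) on 1421978_at and 0.11 (SE 0.12) on 1429589_at, and its arrays overlapped on both.

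Slc32a1, the vesicular GABA transporter (VGAT), had positive differences on all 4 probe sets at P7. The values on 1456457_at were 0.02, 0.12, 0.11 and 0.29 in the knockout, against -0.15, -0.08, -0.02 and -0.04 in wild type. No knockout array fell among the wild type arrays, and the difference was 0.21 (SE 0.08, adjusted p = 0.457). On 1447573_at the knockout arrays were at -0.07, 0.07, 0.18 and 0.66, against -0.14, -0.34, -0.09 and 0.09 on the wild type arrays. Here the genotypes overlapped and knockout array 5 was highest, with a difference of 0.33 (SE 0.15, adjusted p = 0.517), or 0.18 without that array. The difference was 0.11 (SE 0.06) on 1422756_at and 0.14 (SE 0.14) on 1447574_s_at, which shares its database entry with 1447573_at and may match more than 1 transcript. Over the 17 probe sets of inhibitory interneuron markers, the mean per array was -0.07 to 0.22 in the knockout and -0.16 to -0.01 in wild type, and that of 20 granule neuron marker probe sets was 0.07 to 0.19 against -0.20 to -0.04. Purkinje cell markers were at -0.04 to 0.14 against -0.06 to 0.06, and oligodendrocyte markers at 0.11 to 0.54 against -0.50 to -0.10. Some markers are genes the study reported as higher at P7: Gabra6 and Gabrd (granule neuron), Pvalb (interneuron) and Pcp2 (Purkinje cell). Those lists are therefore not independent of that result. Of the granule neuron probe sets, 14 were higher and 6 lower in the knockout. The part of these cell types in the results for GABA genes was not tested. In bulk RNA, fewer cells of a type and less RNA per cell cannot be told apart.

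The 250 bases before the start of Gad1, Gad2 and Slc32a1 are shown because these genes of GABA synthesis and packaging had only positive differences at P7, on all 8 of their probe sets. Sequences are from RefSeq, build GRCm38.p6, plus strand, at chr2:70561879-70562128 for Gad1, chr2:22622077-22622326 for Gad2 and chr2:158610508-158610757 for Slc32a1, and run 5′ to 3′. Capitals mark matches, on either strand, to a TATA box spelled TATAAA and a GC box spelled GGGCGG.
Gad1: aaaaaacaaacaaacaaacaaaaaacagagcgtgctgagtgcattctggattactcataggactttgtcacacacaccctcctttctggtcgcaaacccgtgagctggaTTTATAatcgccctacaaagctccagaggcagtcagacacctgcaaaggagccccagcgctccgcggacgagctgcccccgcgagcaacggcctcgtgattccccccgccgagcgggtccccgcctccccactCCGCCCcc
Gad2: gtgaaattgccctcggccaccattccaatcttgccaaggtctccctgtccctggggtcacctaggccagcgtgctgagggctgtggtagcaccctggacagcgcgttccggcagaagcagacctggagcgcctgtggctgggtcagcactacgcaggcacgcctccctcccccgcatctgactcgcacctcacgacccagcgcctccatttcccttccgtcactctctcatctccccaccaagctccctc
Slc32a1: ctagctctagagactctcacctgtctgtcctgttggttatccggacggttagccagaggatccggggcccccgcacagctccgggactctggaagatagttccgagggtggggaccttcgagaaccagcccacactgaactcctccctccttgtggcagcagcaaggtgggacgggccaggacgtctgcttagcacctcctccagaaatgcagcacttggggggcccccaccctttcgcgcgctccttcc
The Gad1 window held 1 match to each of these motifs, both on the minus strand and without overlap, while the windows of Gad2 and Slc32a1 held none. Among 32851 mouse promoter windows of this length, 32.7% held the GC box letters and 12.4% the TATA box letters. A cyclic AMP response element spelled TGACGTCA was also searched for, on both strands, and was in none of these 3 windows and in 1.55% of all windows. These matches describe the letters in the windows only.

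Slc6a11, the GABA transporter GAT-3 of astrocytes, did not separate the genotypes at P7. On 1433989_at the knockout arrays were at 0.01, -0.01, 0.59 and -0.16, against 0.20, -0.26, 0.14 and -0.21 in wild type, with a difference of 0.14 (SE 0.16). Only knockout array 3 lay above the wild type range, and without it the difference was -0.03. On 1453871_at the difference was 0.05 (SE 0.07), with an interval of -0.10 to 0.20 that excludes a fold of 1.3. The 35 probe sets of astrocyte and Bergmann glia markers had a mean per array of -0.07 to 0.08 in the knockout and -0.06 to 0.03 in wild type.

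Gphn had lower values in the P7 knockout on all 3 probe sets, most on 1430038_at. There the knockout arrays were at 0.01, -0.02, -0.12 and -0.61, against 0.02, 0.22, -0.01 and 0.31 in wild type. The difference was -0.32 (SE 0.13, 95% interval -0.61 to -0.02), with an adjusted p of 0.508. Knockout array 5 gave the lowest value, and without it the difference was -0.18. The differences on 1426462_at and 1426463_at were -0.09 (SE 0.07) and -0.04 (SE 0.10), and their intervals of -0.23 to 0.06 and -0.25 to 0.18 exclude a fold of 1.3.

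The inward chloride cotransporter Slc12a2 had negative differences on its 3 probe sets at P7, all designed from 1 database entry. On 1417622_at the knockout arrays were at 0.04, -0.18, -0.09 and -0.25, against -0.02, 0.02, 0.32 and 0.11 in wild type, a difference of -0.23 (SE 0.09, adjusted p = 0.498). On 1417623_at the knockout values were -0.10, 0.05, 0.01 and -0.71, against -0.01, -0.06, 0.63 and 0.13 in wild type, a difference of -0.36 (SE 0.18, adjusted p = 0.561). Knockout array 5 and wild type array 3, the arrays with the widest spread over all probe sets, set most of this gap. The difference on 1417623_at was -0.19 without knockout array 5, -0.21 without wild type array 3 and -0.04 without both, and leaving out both was chosen after seeing the data. On 1448780_at the difference was -0.20 (SE 0.11), and -0.04 without both arrays.

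Knockout array 5 and wild type array 3 are also the only array labelled female among the knockouts and the only array labelled male among wild type at P7. With labelled sex as a covariate 1417623_at was called, with a difference of -0.69 and an adjusted p of 0.0104, when 1108 probe sets were called in all. On 1417622_at and 1448780_at the same fit gave -0.34 (adjusted p = 0.0545) and -0.36 (adjusted p = 0.0519). Within labelled males the difference on 1417623_at was -0.64, from 3 knockout arrays and 1 wild type array, and within females -0.73, from 1 knockout array and 3 wild type arrays. Each of these therefore rests on 1 of the arrays of wide spread, and labelled sex and the 2 arrays cannot be told apart.

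**Figure D3:**
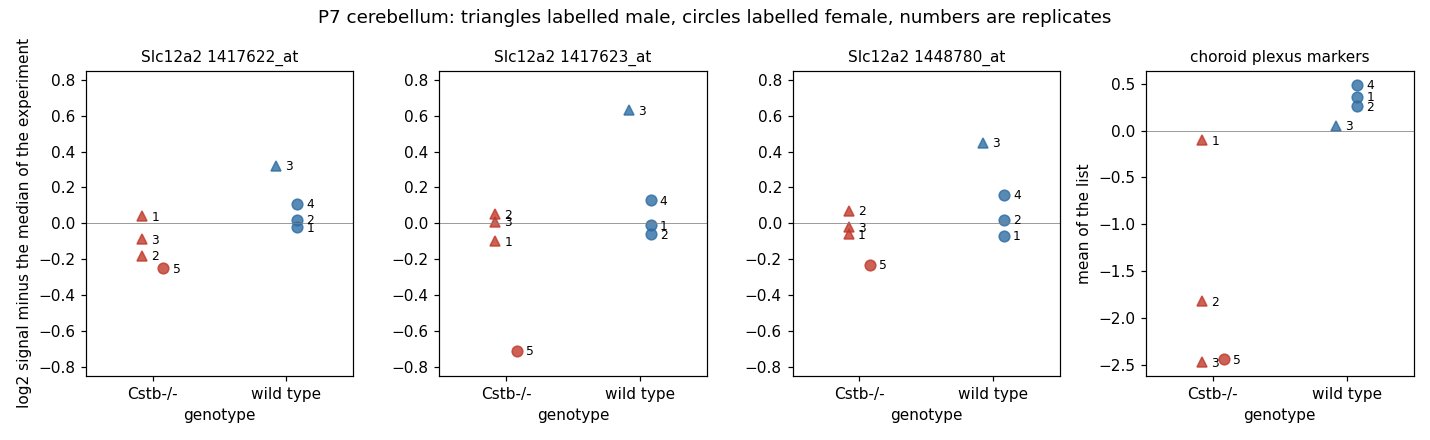
Centred log2 signal of the 3 Slc12a2 probe sets, and the mean of 16 choroid plexus marker probe sets, on each P7 cerebellum array, Cstb-/- left of wild type. Triangles are arrays labelled male, circles arrays labelled female, and the numbers beside them are replicates. Knockout array 5 is lowest and wild type array 3 highest on each Slc12a2 probe set, and the choroid plexus mean lies below 0 on all 4 knockout arrays.

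Slc12a2 is also abundant in choroid plexus, the epithelium that secretes cerebrospinal fluid. Over 16 probe sets of choroid plexus markers the mean per array was -0.10, -1.82, -2.47 and -2.44 in the P7 knockout, against 0.36, 0.26, 0.05 and 0.49 in wild type. Of these probe sets 15 had a negative difference and 0 were called, while 14 had an unadjusted p under 0.05. Knockout array 5 was low on both measures, whereas wild type array 3 was highest for Slc12a2 and lowest among wild type arrays for the markers. The part of choroid plexus RNA in the Slc12a2 values was not tested.

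The outward cotransporter Slc12a5 had higher values in the P7 knockout, the opposite sign to Slc12a2. On 1425337_at the knockout arrays were at 0.22, 0.20, 0.23 and -0.06, against 0.03, -0.10, -0.46 and -0.03 in wild type. The difference was 0.29 (SE 0.11, 95% interval 0.04 to 0.54, adjusted p = 0.488), and knockout array 5 lay among the wild type arrays. On 1451674_at the difference was 0.13 (SE 0.12), with the genotypes overlapping. Without wild type array 3 the difference on 1425337_at was 0.18.

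Gabbr1, the subunit of the GABA-B receptor that binds the transmitter, differed by 0.30 (SE 0.09, adjusted p = 0.413) at P7 on 1437188_at. Its knockout arrays were at 0.31, 0.29, 0.27 and -0.02, against -0.03, -0.08, -0.24 and 0.02 in wild type. On 1455021_at the values were 0.26, 0.12, 0.09 and 0.04 in the knockout, against -0.07, -0.07, -0.04 and -0.05 in wild type. The genotypes overlapped on the first of these only, through knockout array 5, and the difference on the second was 0.18 (SE 0.07, adjusted p = 0.470). Differences on the other probe sets were 0.21 (SE 0.13) on 1422051_a_at and -0.02 (SE 0.09) on 1425595_at. Knockout arrays lay wholly above wild type arrays on 3 of the 22 probe sets, against 2.8% of all probe sets, and wholly below on 0, against 2.84%. The 3 were Gad1 1416562_at, Slc32a1 1456457_at and Gabbr1 1455021_at.

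In P30 cerebella no probe set of these genes was called, against 0.144% of all, and none had an unadjusted p under 0.05, against 7.72%. The smallest adjusted p was 0.75, for Slc12a2 1448780_at. Differences were above 0 for 7 and below 0 for 15, where 47% of all probe sets were above 0, with a median of -0.04 against -0.01 over all probe sets. The interval excluded a fold of 1.3 for 17 of 22, against 81.1% of all, so a difference of that size was bounded for most of these probe sets. Genotypes overlapped on every one of the 22 probe sets, where 6.24% of all probe sets lay wholly above and 6.25% wholly below wild type.

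Of the enzymes, Gad1 differed at P30 by 0.03 and -0.05, and Gad2 by -0.06 and -0.04. Their knockout arrays were at -0.09, 0.08 and -0.05 on Gad1 1416562_at, against -0.12, 0.05 and 0.17 in wild type, so the separation of this probe set at P7 was not seen here. Slc32a1 differed by -0.07 to 0.03 and Gphn by -0.06 to -0.01. Gphn 1426462_at had the narrowest spread, at 0, 0 and -0.01 in the knockout, against 0.01, -0.01 and 0.02 in wild type, with an interval of -0.16 to 0.13. The largest difference among the 22, 0.29 (SE 0.24, adjusted p = 0.807), was that of Slc6a11 1433989_at, with knockout arrays at 0.16, -0.29 and 0.82, against -0.21, -0.16 and 0.17 in wild type. This value came from knockout array 3, without which the difference was 0, and the other Slc6a11 probe set differed by -0.04. Astrocyte and Bergmann glia markers had a mean per array of 0.13 to 0.16 in the knockout and -0.13 to -0.11 in wild type, and microglia markers 0.40 to 0.68 against -0.74 to -0.43.

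The chloride cotransporters and Gabbr1 likewise gave small differences at P30. Slc12a2 differed by -0.08, -0.10 and -0.17, all with the sign seen at P7. On 1448780_at the knockout arrays were at -0.32, 0.09 and -0.20, against 0.06, -0.02 and 0.02 in wild type, with an interval of -0.40 to 0.07. On this probe set knockout array 2 alone lay above the wild type arrays. On 1417622_at and 1417623_at it was at 0.09 and 0.05, with wild type array 1 higher at 0.12 and 0.16. Knockout array 2 was also the knockout array high in choroid plexus markers. The mean of these markers was -2.55, 1.05 and -2.36 in the knockout, against -0.33 to 0.98 in wild type. The part of these markers was not tested. Slc12a5 differed by -0.03 on both probe sets, and the 4 Gabbr1 probe sets by 0.04 to 0.09.

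In granule cell cultures no probe set was called at the stricter threshold, against 2.54% of all, and Gphn came nearest. On Gphn 1430038_at the knockout arrays were at 0.44, 0.21 and 0.65, against 0, -0.70, -0.51 and -0.27 in wild type, so that all knockout arrays lay above all wild type arrays. The mean was 0.43 ± 0.22 (SD) over 3 knockout arrays and -0.37 ± 0.30 over 4 wild type arrays. The difference was 0.80 (SE 0.17, 95% interval 0.41 to 1.19), a fold of 1.74, with an adjusted p of 0.0256. It was the only 1 of the 22 probe sets past a fold of 1.3, against 18.4% of all. It was called with array weights (adjusted p = 0.0084) and in 1 fit over all 6 groups (adjusted p = 0.000746), and would have been called at the threshold used for the cerebella, where 9.05% of all probe sets were. With the equal-variance test of the methods its adjusted p was 0.132. When each array was left out in turn, its difference ran from 0.69 to 0.92 and its adjusted p from 0.0144 to 0.108, above 0.05 in 5 of 7 fits.

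**Figure D4:**
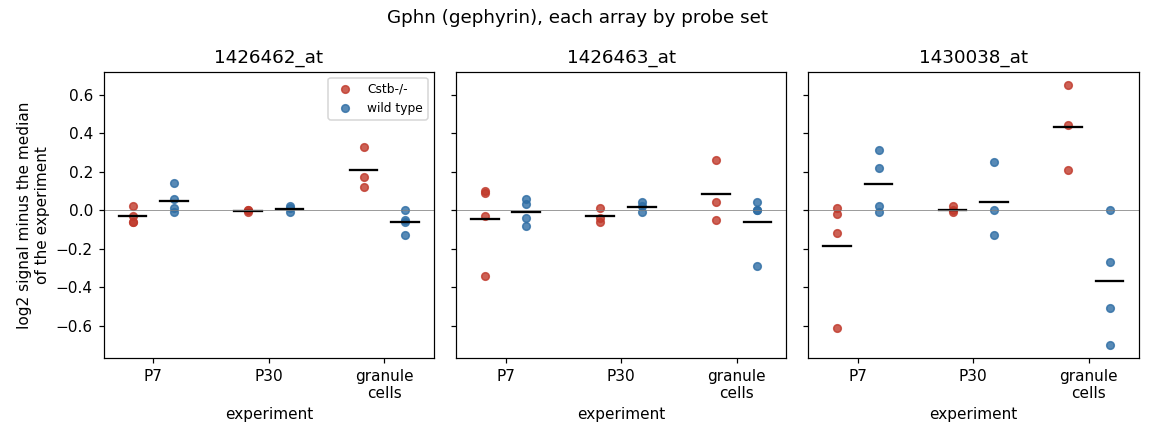
Centred log2 signal of the 3 Gphn probe sets on each array, Cstb-/- (red) left of wild type (blue) within each experiment, with bars at the group means. In the cultures the knockout means on 1426462_at, 1426463_at and 1430038_at are 0.21, 0.09 and 0.43, against -0.06, -0.06 and -0.37 in wild type, and at P30 the genotypes overlap on each.

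The other Gphn probe sets had the same sign in the cultures with smaller differences. On 1426462_at the values were 0.33, 0.12 and 0.17 in the knockout, against 0, -0.06, -0.13 and -0.05 in wild type, without overlap, and the difference was 0.27 (SE 0.08, adjusted p = 0.0662). On 1426463_at the arrays overlapped, and the difference was 0.15 (SE 0.11, adjusted p = 0.379). Averaged over its 3 probe sets, Gphn differed by 0.41 (SE 0.10), with an adjusted p of 0.0296 over 18193 genes.

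Gad1 had higher values in the knockout cultures on both probe sets, and Gad2 lower values. Gad1 1416561_at was at 0.28, 0 and 0.27 in the knockout, against 0.04, -0.09, -0.21 and -0.13 in wild type, a difference of 0.28 (SE 0.10, adjusted p = 0.100). Gad1 1416562_at was at 0.11, 0.13 and 0.08, against -0.09, -0.11, 0 and -0.20 in wild type, a difference of 0.21 (SE 0.07, adjusted p = 0.103). The second of these probe sets separated the genotypes, as it had at P7. The mean of the 2 probe sets differed by 0.24 (SE 0.07, adjusted p = 0.0451 over genes). Gad2 1429589_at was at -0.12, -0.18 and -0.22 in the knockout, against 0, 0.04, 0.05 and 0 in wild type, a difference of -0.20 (SE 0.07, adjusted p = 0.0897) without overlap. Gad2 1421978_at differed by -0.12 (SE 0.21), with an interval of -0.59 to 0.35 that bounds little.

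The 4 Slc32a1 probe sets disagreed in the cultures. On 1422756_at the knockout arrays were at 0.76, -0.01 and 0.48, against 0.21, 0, -0.04 and -0.02 in wild type, a difference of 0.37 (SE 0.17, adjusted p = 0.166). On 1447573_at they were at -0.27, 0 and -0.11, against 0, 0.67, 0.09 and 0.09 in wild type, a difference of -0.34 (SE 0.16, adjusted p = 0.188). The remaining 2 differed by -0.13 and 0.04, and over the 7 arrays the lowest Pearson r between probe sets was -0.65. No direction for this gene could be read, and the mean of its probe sets differed by -0.01 (95% interval -0.22 to 0.20). Slc6a11 differed by -0.17 (SE 0.09) and -0.04 (SE 0.07).

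Slc12a2 differed in the cultures by -0.07, -0.05 and -0.30, the last on 1448780_at, where knockout array 1 at -0.75 stood apart from the knockout arrays at -0.03 and 0. Wild type arrays were at 0.13, 0.04, -0.17 and 0.15 on this probe set. Slc12a5 differed by 0.26 (SE 0.21) and -0.07 (SE 0.07). Of Gabbr1, 1455021_at was at -0.03, -0.09 and -0.10 in the knockout, against 0, 0.42, 0.43 and 0.16 in wild type. The genotypes did not overlap, and the difference was -0.32 (SE 0.11, adjusted p = 0.102), the reverse of its sign at P7. The other Gabbr1 probe sets differed by -0.16 to 0.08.

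In all, 6 of 22 probe sets had an unadjusted p under 0.05 in the cultures, which is 27.3% against 31.6% of all probe sets. Of these, 4 were higher in the knockout, against 18.3% of all, and 2 lower, against 13.3%. Differences were above 0 for 9 of 22, against 45.5% of all, and the interval excluded a fold of 1.3 for 10 of 22, against 42.7%. Knockout arrays lay wholly above wild type on 3 and wholly below on 2, against 13.4% and 9.33% of all. These shares were near or below those of the array as a whole. The cultures also differed in markers of other cells: the mean over 16 fibroblast marker probe sets was 1.32 to 1.45 in the knockout and -0.22 to -0.02 in wild type, with 11 called higher, and that over 16 proliferating cell marker probe sets 1.14 to 1.25 against -0.30 to -0.08, with 13 called higher. Astrocyte markers were at 0.18 to 0.34 against -0.24 to 0.06, inhibitory interneuron markers at 0.04 to 0.18 against -0.06 to -0.01, and granule neuron markers at -0.09 to 0.09 against -0.11 to 0.03. The part of these cell types in the Gphn, Gad1 and Gad2 values was not tested.

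Whether the genotype difference itself depended on age or culture was tested as a difference of differences, with an adjusted p under 0.05 over all probe sets. Both tests share the P7 arrays. Between P30 and P7 it differed for 0 of 22, against 0.127% of all probe sets, with 1 at an unadjusted p under 0.05. The smallest adjusted p was 0.392, for Gad1 1416562_at, whose difference at P30 minus that at P7 was -0.32 (SE 0.12). Between cultures and P7 it differed for 3 of 22, against 15.9% of all probe sets, so the share was near that of the array as a whole. Gphn 1430038_at was higher in the cultures by 1.12 (SE 0.23, adjusted p = 0.00417), with -0.32 at P7 and 0.80 in culture. Gphn 1426462_at was higher by 0.35 (SE 0.10, adjusted p = 0.0246), and Gabbr1 1455021_at changed by -0.51 (SE 0.13, adjusted p = 0.0161), with 0.18 at P7 and -0.32 in culture. The count ran between 2 and 6 when arrays were left out in turn, and it was 6 without knockout culture array 2.

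Partner genes of the pathway were taken from 4 lists, of which 44 of 50 genes had a probe set, 97 in all. By limma none was called at P7 or P30, against 0.00666% and 0.144% of all probe sets. An unadjusted p under 0.05 was reached by 12 at P7, which is 12.4% against 9.45% of all, and by 6 at P30, which is 6.19% against 7.72% of all. In the cultures 30 of 97 reached it, which is 30.9% against 31.6% of all. There 2 probe sets were called, which is 2.06% against 2.54% of all, so the share was near that of the array as a whole. Both were of Dmd, which encodes dystrophin, a protein of inhibitory postsynapses in cerebellum that is also made by many non-neuronal cells. Dmd rose in the knockout by 1.32 (SE 0.19, adjusted p = 0.00603) on 1448665_at, with arrays at 0.67 to 0.93 against -0.89 to 0 in wild type. On Dmd 1417307_at it rose by 0.69 (SE 0.11, adjusted p = 0.00924), with arrays at 0.34 to 0.60 against -0.43 to 0. At P7 Dmd 1448665_at had the opposite sign, -0.49 (SE 0.18, adjusted p = 0.470).

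Among 15 probe sets of GABA uptake and metabolism the median difference was -0.01 at P7, 0.05 at P30 and 0.03 in the cultures. Among 22 of the inhibitory postsynapse it was 0.07, -0.01 and -0.07, and among 35 of chloride transport and its kinases 0.03, -0.05 and 0.01. Among 25 of GABA-B receptor partners it was 0.07, -0.05 and -0.10. No list median thus exceeded 0.10 in size in any experiment. Of the 25 GABA-B receptor partner probe sets, 17 were higher in the knockout at P7, 6 at P30 and 5 in the cultures. Of all probe sets, 53.7%, 47% and 45.5% were higher. In the cultures 2 of the 25 were higher and 6 lower at an unadjusted p under 0.05 by limma, against 18.3% and 13.3% of all. Of partners with an unadjusted p under 0.05 and no overlap between genotypes, the largest uncalled difference was that of Kctd12b, which belongs to the family of auxiliary GABA-B subunits, at 1.14 (SE 0.19, adjusted p = 0.0109) on 1440355_at and 0.70 (SE 0.23, adjusted p = 0.0855) on 1442368_at in the cultures. At P7 the next largest after Dmd was Slc4a10, a bicarbonate transporter, at -0.23. Those after it were Wnk2, a kinase of the family that controls the chloride cotransporters, and Kctd8, another auxiliary GABA-B subunit, both at 0.20. At P30 the largest were Kctd12b at 0.25 and Slc4a8, a sodium-driven bicarbonate transporter, at -0.24. Gnao1, a G protein subunit through which GABA-B receptors act, followed at 0.19, and Slc6a12, a betaine and GABA transporter, at -0.19. None of these was called.

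Genes whose centred values most resembled those of a member were sought over the 21 arrays, for the probe set of each gene with the widest spread. For Gphn 1430038_at these were Pgap2 (Pearson r 0.95), Eed (r 0.94) and Dbr1 (r 0.94). For Gad1 1416561_at they were Atp6ap2 (r 0.90), Ywhaq (r 0.87) and Brd7 (r 0.87), and for Slc12a5 1425337_at Fam168a (r 0.88), Heg1 (r 0.88) and Fam214a (r 0.87). For Slc32a1 1447573_at they were Krtap6-3 (r 0.91), Saa1 (r 0.88) and Tnp2 (r 0.88). The most similar gene was G630016G05Rik (r 0.90) for Slc6a11 1433989_at and Zfp322a (r 0.88) for Slc12a2 1417623_at. It was Cyp4f18 (r 0.81) for Gad2 1421978_at and Rnf14 (r 0.81) for Gabbr1 1422051_a_at. The arrays share their centring and each RNA sample gives both values. The search covered the 34945 probe sets with 1 symbol, so these correlations are descriptions only.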

How the data were processed

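Values of 21 arrays were analysed. By the methods and labels, the authors background-adjusted, quantile-normalised and summarised the signals by RMA and subtracted the median of each probe set; the deposited values are log2 signals with a median of 0 within each experiment (to within 5e-07). The methods' filter at a low percentile could not be applied, since levels are not kept. Of 45101 probe sets, 64 controls were left out. Genes were named from the platform annotation, where 34945 probe sets had 1 symbol, 932 several and 9160 none. Genotypes were compared within each experiment with limma 3.58.1 in R 4.3.3 (lmFit, eBayes, 2-sided, Benjamini-Hochberg over 45037 probe sets), at the fold and p thresholds of the methods, and tested on simulated data first. Samples were not paired by replicate number in the main fits. Deviations of arrays with the same number had an r of 0.01 to 0.17 at P7 and -0.18 to -0.03 at P30. These values cannot exclude that equal numbers mark littermates.

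Members, the 4 partner lists and 9 marker lists, and the tests were chosen with earlier results of these data known. Slc6a13 stands in a partner list and in the fibroblast list. Some markers are among the genes the study reported as changed on these arrays, such as Gfap and C1qa at P30 and Col1a2 and Top2a in cultures. All member probe sets were named, and from the partner lists per experiment those called and up to 4 with the largest difference among those with an unadjusted p under 0.05 and no overlap between genotypes. Alternatives were the equal-variance test of the methods, robust eBayes, array weights, 1 fit over 6 groups, median centring of arrays, no fold threshold, labelled sex as a covariate, a replicate block, gene means and each array left out. Tables and figures used Python 3.11.15, pandas 2.3.3, numpy 2.4.6 and matplotlib 3.10.9. The number of arrays limits the precision.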

Additional observations from a re-analysis of the deposited data

Results flagged for a closer look

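Within groups of 4 arrays, 7 of 66 groups checked held an array far from the others by Dixon's criterion. About 1 in 20 groups of independent, normally distributed values would. The groups here include ties at 0 in the cultures and several probe sets of 1 gene, so the rates cannot be compared. In P7 knockout cerebella, array 5 was at -0.06 for Slc12a5 1425337_at, against 0.20 to 0.23 on the other knockout arrays. The same array was at -0.02 for Gabbr1 1437188_at, against 0.27 to 0.31. Knockout array 1 was at -0.30 for Gabbr1 1422051_a_at, against 0.16 to 0.22. In wild type cultures, array 5 was at 0.67 for Slc32a1 1447573_at, against 0 to 0.09, and at -0.29 for Gphn 1426463_at, against 0 to 0.04. Wild type culture array 4 was at 0.21 for Slc32a1 1422756_at, against -0.04 to 0, and array 7 at 0.20 for Gabbr1 1437188_at, against 0 to 0.01.

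The knockout difference in cultures departed from that in P7 cerebella for 3 of 22 probe sets, against 15.9% of all probe sets. This share was near that of the array as a whole. By limma's test of the difference of differences, the 3 were Gphn 1430038_at by 1.12 (adjusted p = 0.00417), Gphn 1426462_at by 0.35 (adjusted p = 0.0246) and Gabbr1 1455021_at by -0.51 (adjusted p = 0.0161).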

How the results depend on the processing

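The count of called probe sets of GABA and chloride transport genes stayed at 0 of 22 in P7 and P30 cerebella and in cultures under the alternatives run, with these exceptions. At P7 it was 1 (Slc12a2 1417623_at) with labelled sex as a covariate. In cultures it was 1 (Gphn 1430038_at) with array weights, in 1 fit over all 6 groups, and at an adjusted p under 0.05, a threshold chosen after seeing the data. It ranged from 0 to 0 when each array was left out, in each experiment. The count differing between P30 and P7 ranged from 0 to 0, and that between cultures and P7 from 2 to 6. A replicate block called 0 at both ages (smallest adjusted p 0.563 at P7 and 0.679 at P30). Of single differences, 13 of 374 values at P7, 30 of 308 at P30 and 8 of 330 in cultures changed sign, 0 of them where the difference was 0.20 or more.

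Totals over all probe sets moved more. Array weights called 17 at P7, 226 at P30 and 2828 in cultures, 1 fit over all groups 16, 107 and 5725, labelled sex 1108, 29 and 1256, and the equal-variance test 1, 1 and 32. Leaving out arrays gave 3 to 38, 29 to 76 and 302 to 2685. The cause was not tested. Signal over background cannot be read from centred values.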
